A study of Oncorhynchus mykiss with 60 samples.

Results

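The rainbow trout copies of dazl, celf1, dazap2, rbpms2a and rbpms2b are described here along the animal to vegetal axis of the egg and early embryo. A gene was taken when its own ID, or the zebrafish ortholog given for it in the deposited ortholog table, was one of these 5 names, and that rule found 8 of the 23471 genes counted. They are dazl and dazl LOC110487980, celf1 LOC110526187 and celf1 LOC110506308, dazap2 LOC110492102 and dazap2 LOC110532562, rbpms2a, and rbpms2b LOC110526773. All 8 are protein-coding in the RefSeq table, passed the filter on low counts in every fit, and had counts in each of the 55 libraries. The lowest single count was 4, for dazl LOC110487980.

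Germ plasm is a store of maternal RNA and protein that marks the cells of the future germ line, and in fish and frog oocytes much of it gathers first in the Balbiani body and then at the vegetal cortex. Dazl is a germ-cell protein that binds the 3′ ends of messenger RNAs and promotes their translation. Celf1, called Bruno-like in zebrafish and EDEN-BP in Xenopus, binds GU-rich elements and promotes shortening of the poly(A) tail. Dazap2 was found through its binding to DAZ proteins. Rbpms2, called Hermes in Xenopus, is an RNA-binding protein of the Balbiani body in zebrafish. In zebrafish the dazl and celf1 messages lie at the vegetal side of the egg, and dazl message later reaches germ plasm near the animal pole.

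The samples were eggs and embryos of rainbow trout (Oncorhynchus mykiss), each cut across that axis into 5 sections, of which A is the animal end and E the vegetal end. There were 4 stages. The labels of 0 hpf (hours post fertilization) name both a non-fertilized and a newly fertilized egg, and those of 1 hpf both a single-cell and an early cleavage stage, so stages are called by their times. The other stages were the early blastula at 1 dpf (days post fertilization) and the mid-blastula at 3 dpf. No strain, treatment, parent or clutch is named in the labels, so the p-values rest on how far these samples differ among themselves, some of which can be technical. There were 3 replicates at 0 hpf, 1 dpf and 3 dpf and 2 at 1 hpf, where replicate 2 was not analysed here.

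Libraries held 1.09 to 14.46 M counts (median 4.6 M), and the lowest median, 3.86 M, was that of 3 dpf. Each section gave an equal mass of RNA to its library, so a level is a share of the RNA of its section, given as CPM (counts per 1 M counts of the library after TMM scaling). Fewer cells of a kind and less RNA per cell cannot be told apart in such samples. Reads that fit both copies of a gene could have been divided between them or discarded, so the level of a single copy is uncertain to that extent. Levels were not set against each other between genes, because no transcript lengths were used. The 8 measured copies of the vegetal reference genes hwa, trim36, sybu, slbp2 and wnt8a were all higher in E at 0 hpf (32% of all genes). At 3 dpf 7 of 8 were (34.3% of all genes), with a wnt8a copy as the exception. That list was chosen with earlier results of these data known, so it is no independent check of the section order. No gene of the lists for follicle cells or blood was matched, and of 2 sperm and testis genes, neither differed between A and E at 0 hpf, while spata6 was higher in A at 1 hpf (8.59 against 5.0 CPM) and sycp3 higher in E at 3 dpf (3.48 against 18).

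From 0 hpf to 1 dpf 7 of the 8 genes were more abundant toward the vegetal end, and rbpms2b LOC110526773 leaned to the animal end until 1 dpf. All 8 were localized, meaning that the 5 sections differed (edgeR quasi-likelihood F-test, Benjamini-Hochberg adjusted over all genes tested, threshold 0.05), at each of the 4 stages. The call of rbpms2b LOC110526773 was lost at 0 hpf without replicate 1 (adjusted p = 0.0608) or replicate 3 (0.0507) and at 1 hpf without replicate 3 (0.68, with the lone sample assumed to vary like the other stages), and that of dazap2 LOC110532562 at 3 dpf without replicate 1 (0.0973) or replicate 2 (0.149). Without the replicate block the calls of dazl LOC110487980 (0.545) and rbpms2b LOC110526773 (0.295) at 1 hpf and of dazap2 LOC110532562 (0.324) and dazl LOC110487980 (0.131) at 3 dpf were lost. Across all genes tested 56.1% (0 hpf), 46.1% (1 hpf), 62.4% (1 dpf) and 69.8% (3 dpf) were localized, so a localized gene was common. The share of all genes with a higher level in E than in A was 32% (0 hpf), 24.9% (1 hpf), 30.5% (1 dpf) and 34.3% (3 dpf). Of the 8, 7 were higher in E at the first 3 stages and 8 at 3 dpf. The median log2 of A over E among the 8 was -2.42, -2.81, -3.02 and -3.40 from 0 hpf to 3 dpf, against -0.01, 0.04, 0.05 and 0.07 over all genes tested. The 8 genes were chosen with earlier results of these data known, so these counts and medians describe them and are no independent evidence.

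**Figure D1:**
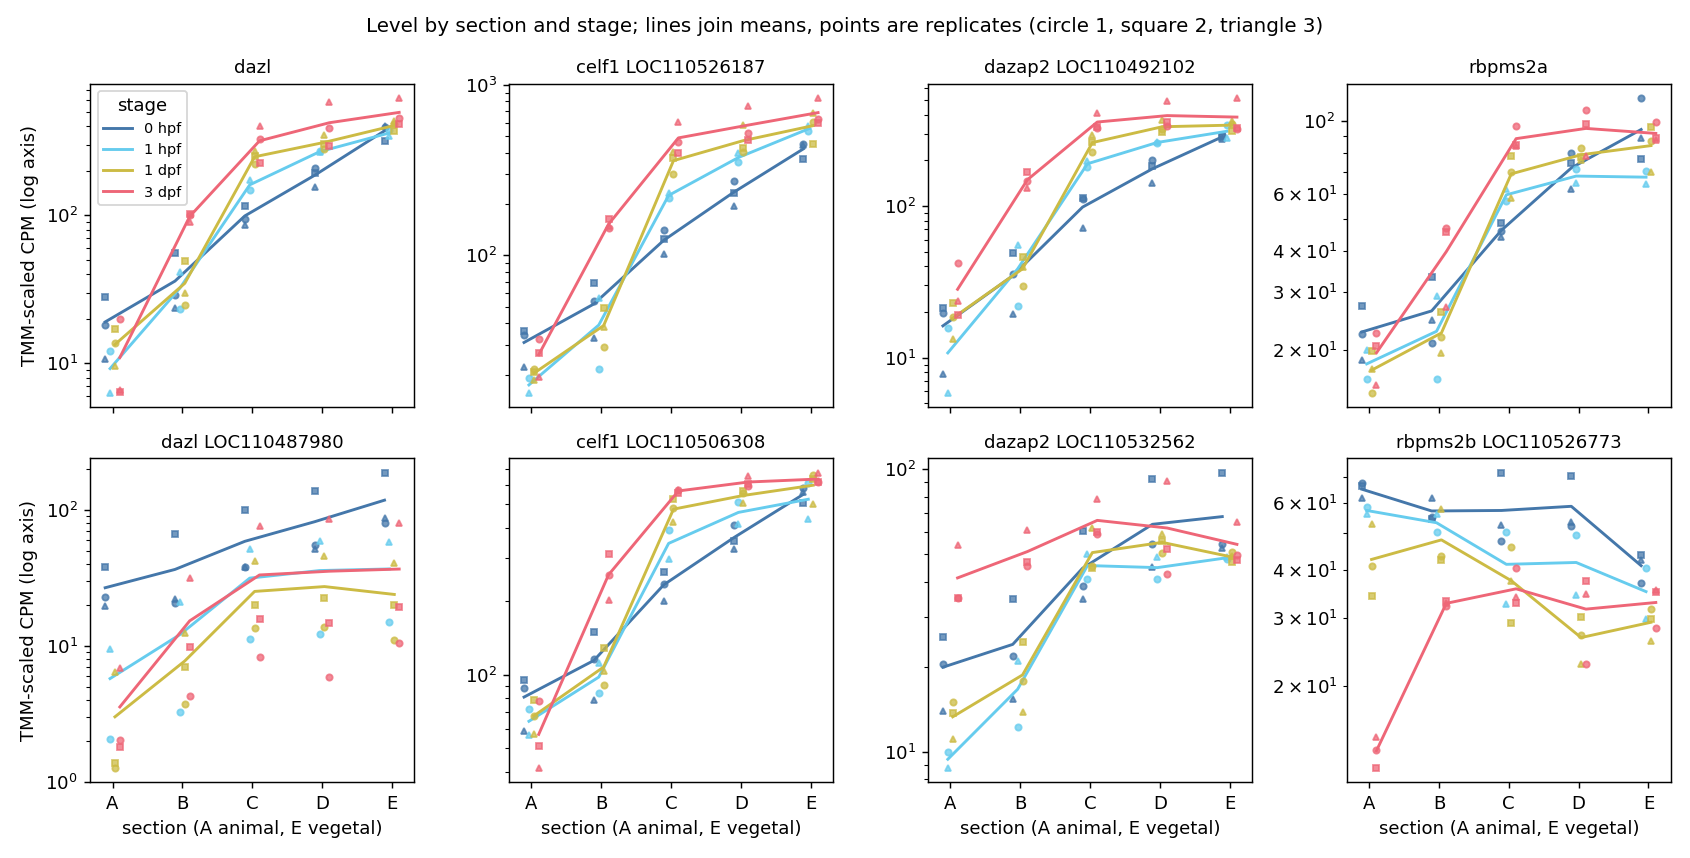
Level of each of the 8 genes (TMM-scaled CPM, log axis) in sections A to E; points are replicates, lines join the means of a stage, and each gene has its own axis. Of the 8 genes, 7 rise from A to E at 0 hpf in steps, and at every stage their largest rise on the log axis lies before section C. The level of rbpms2b LOC110526773 is lower in E than in A until 1 dpf, without an even fall between them. At 1 dpf its mean is highest in B (48.0 CPM, against 42.7 in A and 29.3 in E).

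The gene dazl had the largest fitted difference between the ends among the 8 at each of the 4 stages, but this rank was not tested. Close to it were dazap2 LOC110492102 at 0 hpf (log2 of A over E -4.26, SE 0.22) and celf1 LOC110526187 at 1 dpf (-4.77, SE 0.20). At 0 hpf its level in section A was 18.2, 28.2 and 10.7 CPM in replicates 1, 2 and 3, and in section E it was 398, 317 and 403 CPM. The groups did not overlap, and the fitted level was 21.3-fold higher in E (log2 of A over E -4.41, SE 0.26, adjusted p = 5.97e-10). At 1 hpf the 2 replicates had 12.1 and 6.31 CPM in A and 376 and 346 in E. At 3 dpf section A held 19.8, 6.37 and 6.64 CPM and section E 454, 418 and 618. The excess in E was 41.1-fold at 1 hpf, 30.0-fold at 1 dpf and 45.3-fold at 3 dpf (log2 -5.36, -4.91 and -5.50). Section E held 52.3% of the level summed over the 5 sections at 0 hpf (SD 7.39, n = 3) and 37.1% (SD 2.47, n = 3) at 3 dpf, while section A held 2.65% (SD 1.21) and 0.84% (SD 0.61). Such a sum gives the 5 sections equal weight, so these are not shares of the dazl RNA of an egg or embryo.

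The copy dazl LOC110487980 was also vegetal, with a smaller difference between the ends. At 0 hpf it had 22.8, 38.2 and 19.7 CPM in A and 81.3, 188 and 87.1 in E, a 4.16-fold excess in E (log2 -2.06, SE 0.14, adjusted p = 3.1e-09). At 3 dpf it had 2.03, 1.82 and 6.85 CPM in A and 10.6, 19.4 and 80.7 in E, or 9.86-fold (log2 -3.30, SE 0.32, adjusted p = 1.19e-07). Within every stage the lowest replicate of E stood above the highest of A. Without the replicate block its difference at 1 hpf was not called (log2 -2.53, adjusted p = 0.169). Its replicates differed far more than those of dazl. Averaged over the 5 sections, the 3 replicates of 0 hpf were at 43.8, 107 and 43.7 CPM, with replicate 2 the highest. At 1 hpf replicates 1 and 3 were at 8.79 and 40.2 CPM, at 1 dpf replicates 1 to 3 were at 8.70, 14.2 and 29.6, and at 3 dpf they were at 6.22, 12.3 and 56.3. Replicate 3 was thus the highest at each of the 3 later stages. The log2 of A over E also differed between them, with -2.13, -3.10 and -3.47 in replicates 1 to 3 at 3 dpf. What else sets these replicates apart was not tested.

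Both celf1 copies were vegetal at every stage. The copy LOC110526187 had 34.1, 36.2 and 22.3 CPM in section A at 0 hpf against 452, 366 and 446 in E, and the difference was 14-fold (log2 -3.80, SE 0.19, adjusted p = 1.37e-10). At 3 dpf it had 32.4, 26.8 and 19.3 CPM in A and 630, 598 and 833 in E, a difference of 25.9-fold (log2 -4.70, SE 0.25, adjusted p = 1.37e-09). The values in between were 31.3-fold at 1 hpf and 27.3-fold at 1 dpf. For the copy LOC110506308, section A held 88.4, 95.4 and 58.8 CPM at 0 hpf and section E 582, 505 and 563, so that E was 6.90-fold higher (log2 -2.79, SE 0.16, adjusted p = 5.8e-10). Its level at 3 dpf was 78.0, 50.9 and 41.5 CPM in A and 618, 617 and 672 in E, or 11.3-fold (log2 -3.49, SE 0.22, adjusted p = 2.88e-09). In both copies the replicates of A and E did not overlap at any stage.

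The dazap2 copies had the largest mean difference in log2 of A over E among the 3 pairs of same-named copies. The copy LOC110492102 was strongly vegetal, with 19.6, 21.3 and 7.74 CPM in A and 296, 286 and 276 in E at 0 hpf (19.2-fold, log2 -4.26, SE 0.22, adjusted p = 2.24e-10). At 3 dpf it had 41.8, 19.1 and 23.8 CPM in A and 320, 325 and 513 in E (13.3-fold, log2 -3.73, SE 0.27, adjusted p = 7.35e-09). The other copy, LOC110532562, had 20.4, 25.4 and 13.9 CPM in A and 54.5, 96.9 and 52.5 in E at 0 hpf (3.32-fold, log2 -1.73, SE 0.13, adjusted p = 5.75e-09). Its difference between the ends was almost gone at 3 dpf, when section A held 34.9, 35.0 and 53.7 CPM and section E 49.8, 47.8 and 65.0. The replicates of A and E overlapped there, although E was above A within each of the 3. The fitted difference was 1.33-fold (log2 -0.41, SE 0.16, adjusted p = 0.035). That call was lost without replicate 1 (adjusted p = 0.137), without replicate 2 (0.15) and without the replicate block (0.267). It was also lost with DESeq2 (0.0789) and with the size factors of DESeq2 in edgeR (0.0731).

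The gene rbpms2a was vegetal and kept a similar difference between the ends at the 4 stages. At 0 hpf it had 22.3, 27.1 and 18.5 CPM in A and 117, 76.4 and 88.9 in E, without overlap (4.17-fold, log2 -2.06, SE 0.17, adjusted p = 3.33e-08). The fitted excess in E was 3.55-fold at 1 hpf, 4.68-fold at 1 dpf and 4.73-fold at 3 dpf. At 3 dpf the replicates were at 22.5, 20.5 and 15.6 CPM in A and 99.3, 88.5 and 87.3 in E.

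Among the 8 genes, rbpms2b LOC110526773 alone was higher at the animal end in the egg, as were 32% of all genes tested at 0 hpf, 27.6% at 1 hpf and 32.9% at 1 dpf (38.1% at 3 dpf). At 0 hpf section A held 67.3, 66.1 and 61.6 CPM and section E 37.0, 43.8 and 42.5, with no overlap (log2 0.69, SE 0.13, adjusted p = 2.52e-04, 1.61-fold higher in A). At 1 hpf A held 58.3 and 56.1 CPM and E 40.5 and 29.9, and at 1 dpf A held 41.0, 34.3 and 52.7 and E 31.8, 30.0 and 26.1. A was thus above E in every replicate of these stages (log2 0.79, adjusted p = 0.00638, and log2 0.57, adjusted p = 0.0126). The call at 1 hpf was lost without the replicate block (log2 0.76, adjusted p = 0.0788). Without replicate 3, which left 1 replicate at 1 hpf, the log2 there was 0.53. The call at 1 dpf was lost without replicate 1 (log2 0.65, adjusted p = 0.0502) or replicate 3 (0.33, 0.0878). At 3 dpf the order was the opposite, with 13.7, 12.3 and 14.8 CPM in A and 28.2, 35.2 and 35.5 in E, so that E was 2.41-fold higher (log2 -1.27, SE 0.21, adjusted p = 4.91e-05). With equal weight of the sections, section A held 23.4% of its summed level at 0 hpf (SD 2.25, n = 3) and 9.26% (SD 1.00, n = 3) at 3 dpf.

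**Figure D2:**
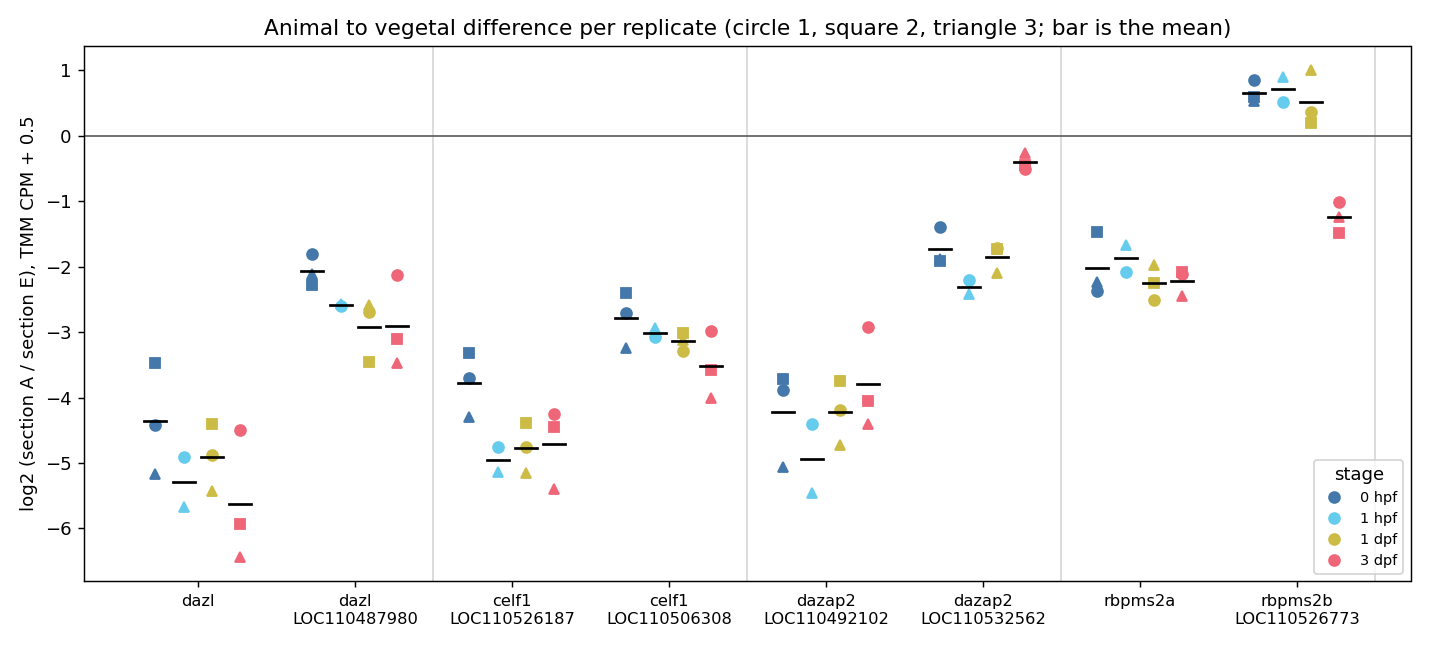
Log2 of section A over section E in each replicate (TMM-scaled CPM plus 0.5), by gene and stage; points are replicates, bars are stage means, and 0 means equal levels at both ends. Values of 7 genes lie below 0 at every stage, dazap2 LOC110532562 approaches 0 at 3 dpf, and rbpms2b LOC110526773 passes from above 0 to between -1.02 and -1.48 at 3 dpf.

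The steps between neighbouring sections showed where along the axis the levels changed. The steps called differed between stages, but each stage was fitted apart. Only the change of each step from 0 hpf to 3 dpf was tested directly, as given below. At 0 hpf steps were called from B to E, and the largest fitted step of the 7 vegetal genes was that from B to C. From B to C, 7 of 8 genes rose (9.92% of all genes tested differed, 1320 of 21799 rising), and from C to D 7 (9.15%, 972 rising). From D to E 5 rose while rbpms2b LOC110526773 fell (16.1%, 1630 rising and 1875 falling). From A to B none of the 8 passed the edgeR test (0% of all genes). At an unadjusted p below 0.05 there were 4, and DESeq2 called 3 (191 of 21799 genes). The gene dazl rose 2.92-fold from B to C, 1.86-fold from C to D and 2.07-fold from D to E. Its mean levels from A to E were 19.0, 35.9, 99.1, 187 and 373 CPM. These steps at 0 hpf rested on few replicates: without replicate 3 the 8 genes gave 4, 0 and 0 calls for B to C, C to D and D to E, and without replicate 1 they gave 5, 0 and 3.

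At 1 hpf and 1 dpf the largest step of these 7 genes lay between B and C, and no later step was called. From B to C the same 7 genes other than rbpms2b LOC110526773 rose at both stages, while 26% and 50.6% of all genes differed (2680 of 21644 and 5471 of 22141 rising). Without the replicate block dazl LOC110487980 was not called there at 1 hpf (adjusted p = 0.604) or 1 dpf (0.0821). At 1 dpf dazl rose 7.13-fold from B to C and celf1 LOC110526187 9.03-fold, from 29.2, 49.4 and 37.8 CPM in B to 301, 371 and 406 in C. From A to B, dazl alone was called at 1 hpf (0.282% of all genes), and was not called without replicate 3. At 1 dpf 5 of the 8 rose from A to B (1.15% of all genes differed, 230 of 22141 rising). None of the 5 was called without replicate 1 or without replicate 2. Among all genes 16 of 22164 and 1 of 22252 were then called. From C to D and from D to E edgeR called none of the 8 at 1 hpf, 1 dpf or 3 dpf, and DESeq2 none. At an unadjusted p below 0.05 there were 3 and 0 genes at 1 hpf, 3 and 1 at 1 dpf, and 0 and 0 at 3 dpf. Among all genes these steps were called for 0% and 0.097% at 1 hpf, 0% and 0% at 1 dpf, and 0% and 0% at 3 dpf, so few or no calls from C to E were also found among all genes. Means still differed there in some genes, as in celf1 LOC110526187 at 1 hpf, with 225 CPM in C, 375 in D and 551 in E.

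At 3 dpf the boundary between A and B had become the largest step for most of the 8 genes. From A to B 7 of 8 rose (57.2% of all genes differed, 6394 of 22380 rising) and from B to C 6 (33.7%, 2777 rising). Without the replicate block dazl LOC110487980 was not called from A to B (adjusted p = 0.156) or from B to C (0.504). Its call from B to C was also lost without replicate 3 (0.116). The gene dazl rose 9.27-fold from A to B, from 19.8, 6.37 and 6.64 CPM to 101, 103 and 90.6, and 3.03-fold from B to C. The exception at the first step was dazap2 LOC110532562, at 1.27-fold (adjusted p = 0.0763). For rbpms2b LOC110526773 the 2.43-fold rise from A to B was the single step called, and sections B to E held means of 32.8, 35.8, 31.7 and 33.0 CPM.

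The stages were then compared directly, by testing whether the difference between A and E itself changed. The labels do not say whether samples of different stages share parents, so stage and parentage cannot be told apart. Between 0 hpf and 1 hpf none of the 8 genes passed the edgeR test (0.192% of all genes did); 4 had an unadjusted p below 0.05 and DESeq2 called none. Between 1 hpf and 1 dpf none passed either (0.00426% of all genes; 0 at an unadjusted p below 0.05; DESeq2 none). Between 1 dpf and 3 dpf 2 of the 8 changed (43.9% of all genes), in opposite directions. The difference of dazap2 LOC110532562 moved toward A by 1.48 on the log2 scale (SE 0.23, adjusted p = 2.36e-06). That of rbpms2b LOC110526773 moved toward E, by a log2 change of -1.79 (SE 0.27, adjusted p = 9.88e-07).

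From 0 hpf to 3 dpf 6 of the 8 changed, against 49.1% of all genes in either direction. A change toward E was found for 5 of them, against 23.8% of all genes. Those 5 were rbpms2b LOC110526773 (-1.93, SE 0.26), dazl LOC110487980 (-1.26, SE 0.30), dazl (-1.07, SE 0.43), celf1 LOC110526187 (-0.89, SE 0.33) and celf1 LOC110506308 (-0.69, SE 0.24), all on the log2 scale. The single change toward A was that of dazap2 LOC110532562 (1.35, SE 0.23). For dazap2 LOC110492102 (0.55, adjusted p = 0.252) and rbpms2a (-0.16, adjusted p = 0.617) no change was called. Several of these calls depended on the replicate block, the scaling or a single replicate. Without the block dazl (adjusted p = 0.062), dazl LOC110487980 (0.597) and celf1 LOC110506308 (0.0529) were not called. With the size factors of DESeq2 in edgeR dazl was not called (-0.98, 0.0597). Without replicate 2 the value of dazl was -0.52 (adjusted p = 0.399), that of celf1 LOC110526187 -0.77 (0.113) and that of celf1 LOC110506308 -0.47 (0.217). Without replicate 3 dazl LOC110487980 was at -0.74 (0.186), and without replicate 1 dazl was at -1.97 (0.00796). A change in this contrast of relative levels does not show that RNA moved.

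The change of each step was tested as well, a comparison added after the data had been seen. The step from A to B changed toward E in 7 of 8 genes between 0 hpf and 3 dpf (44.7% of all genes changed, 5340 of 23458 in this direction). The log2 changes ran from -0.81 for rbpms2a to -2.27 for dazl (adjusted p = 0.00766 and 6.33e-05). In rbpms2b LOC110526773 the log2 of A over B was 0.18 at 0 hpf (not called) and -1.28 at 3 dpf. For dazap2 LOC110532562 the change was -0.10 (adjusted p = 0.765). Without replicate 1 the call of rbpms2a was lost (-0.70, 0.0868), and without replicate 2 that of dazap2 LOC110492102 (-1.01, 0.136). Without the replicate block dazl LOC110487980 was not called (-1.61, 0.42). None of the 8 changed in the steps B to C, C to D or D to E by edgeR, and DESeq2 called none. The all-gene shares for these were 13.5%, 0% and 0.26%, and 1, 4 and 4 of the 8 had an unadjusted p below 0.05.

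Within single sections, levels of most of these genes rose between 0 hpf and 3 dpf in the middle of the axis. In section C 6 of 8 changed, 5 upward (33.3% of all genes changed, 3648 of 21966 upward). There celf1 LOC110526187 went from 141, 124 and 102 CPM to 462, 401 and 602, or 3.92-fold (log2 1.97, SE 0.18, adjusted p = 7.19e-05). In the same section dazap2 LOC110492102 rose 3.60-fold, dazl 3.18-fold, celf1 LOC110506308 2.40-fold and rbpms2a 1.88-fold. Section B had 6 changes, 5 upward (26.9% of all genes, 3424 of 23066 upward). Section D had 5, of which 4 were upward (15.8%, 1808 of 21502 upward). The largest of these was dazap2 LOC110492102 in section B, which went from 35.7, 48.8 and 19.5 CPM to 146, 169 and 132 (4.10-fold). Without replicate 1 none of the 8 passed in B or D, where 4 and 5 of all genes did. In section C rbpms2a (log2 0.84, adjusted p = 0.0531) and rbpms2b LOC110526773 (-0.90, 0.069) were then no longer called, and the latter was not called without replicate 2 (-0.46, 0.206) or replicate 3 (-0.71, 0.106) either. Without replicate 2, celf1 LOC110506308 and rbpms2b LOC110526773 were not called in D (adjusted p = 0.0517 and 0.0949), nor was the latter without replicate 3 (0.055). The log2 change of dazl in D was 1.19, and 0.76 without replicate 3.

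**Figure D3:**
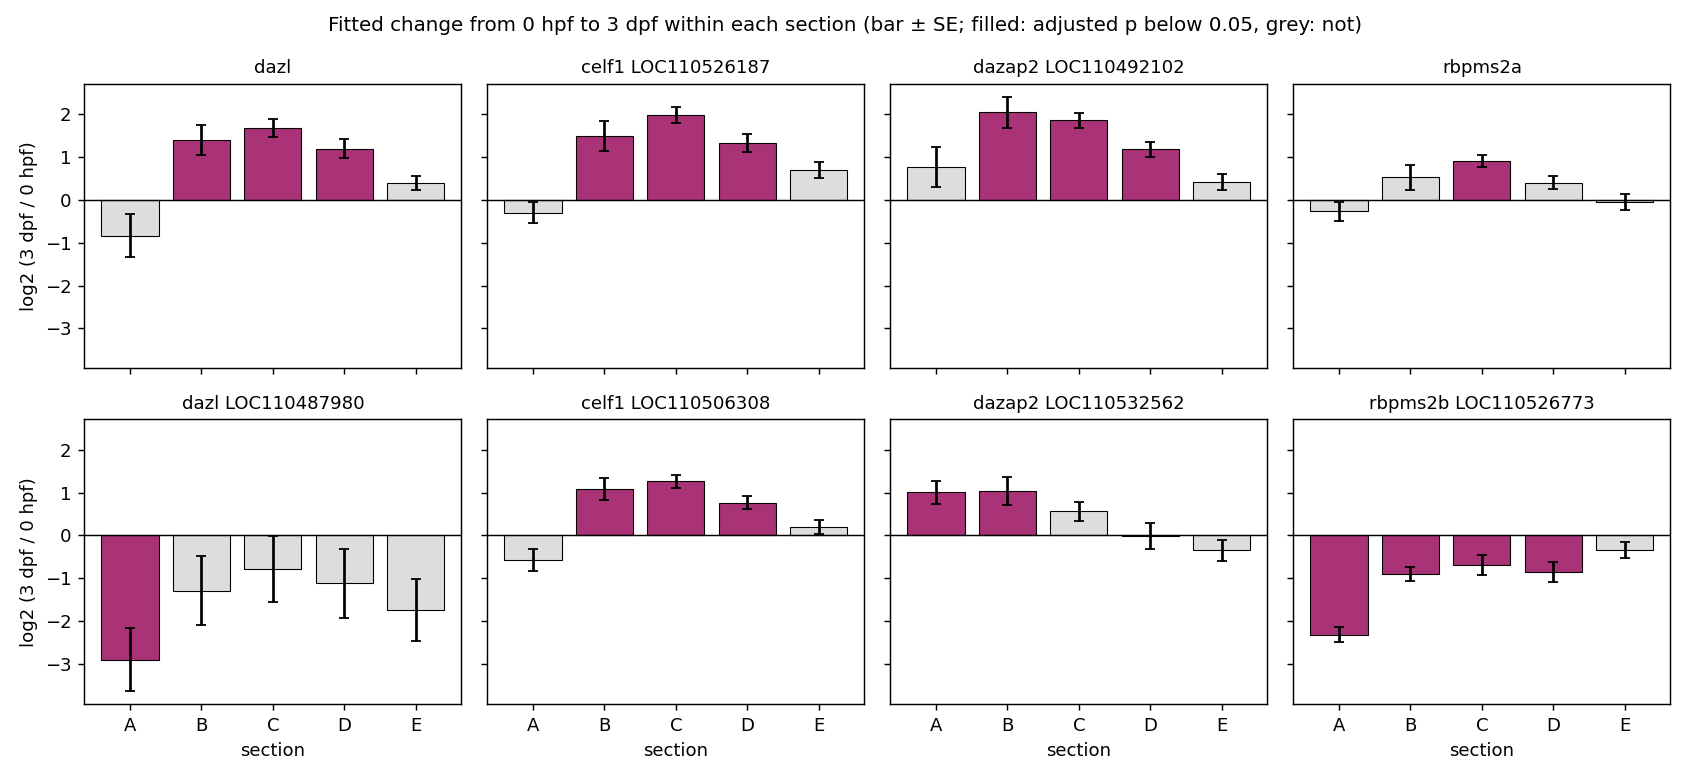
Fitted log2 change from 0 hpf to 3 dpf within each section, by gene (bars, with SE as whiskers; purple bars had an adjusted p below 0.05 and grey bars did not). The rises of dazl, celf1 and dazap2 LOC110492102 sit in sections B to D, section E has no coloured bar, and rbpms2b LOC110526773 falls in A to D.

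At the ends of the axis fewer of the 8 changed over that time. In section A 3 did (55.7% of all genes). There rbpms2b LOC110526773 fell to 0.201 of its level (log2 -2.31, SE 0.17, adjusted p = 2.01e-06), and dazl LOC110487980 to 0.135 (log2 -2.89, SE 0.74, adjusted p = 0.00633). In the same section dazap2 LOC110532562 rose 2.00-fold (log2 1.00, SE 0.26, adjusted p = 0.00707). Without replicate 2 the fall of dazl LOC110487980 was not called (adjusted p = 0.0732). The rise of dazap2 LOC110532562 was not called without replicate 1 (0.0543) or replicate 3 (log2 0.58, 0.062). Without replicate 3 its rise in section B was at 0.68 (0.125). In section E none of the 8 passed (3.05% of all genes). At an unadjusted p below 0.05 there were 4, and DESeq2 called 1 (1590 of 21028 genes). Fitted changes in section E ran from a fall to 0.300 of the level for dazl LOC110487980 (log2 -1.74, SE 0.72) to a 1.61-fold rise for celf1 LOC110526187 (log2 0.69, SE 0.19). The smallest was that of rbpms2a, at 94.2 ± 21.0 CPM at 0 hpf and 91.7 ± 6.58 at 3 dpf (SD, n = 3).

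Counts were also summed over the 5 sections of each egg or embryo, and the sums compared between stages. Each section adds to such a sum by the depth of its library, so it is not an amount per egg or embryo. From 0 hpf to 3 dpf 4 genes rose and 1 fell (36.1% of all genes changed, 4665 of 23460 upward and 3802 downward). Means over the sections of celf1 LOC110526187 were 191, 166 and 160 CPM at 0 hpf and 357, 333 and 470 at 3 dpf, without overlap (2.25-fold, log2 1.17, SE 0.16, adjusted p = 6.85e-04). The genes dazap2 LOC110492102 (2.20-fold), dazl (1.90-fold) and celf1 LOC110506308 (1.6-fold) rose as well. Means of rbpms2b LOC110526773 were 51.9, 61.2 and 54.3 CPM at 0 hpf and 27.5, 30.2 and 30.4 at 3 dpf, again without overlap (2.07-fold lower, log2 -1.05, SE 0.13, adjusted p = 4.05e-04). Among the 3 not called, dazl LOC110487980 had the largest fitted change and the largest error (log2 -1.52, SE 0.83, adjusted p = 0.178). Without replicate 1 the rise of celf1 LOC110526187 was the single call of the 8, and without replicate 3 the rises of celf1 LOC110506308 (0.0716) and dazl (0.0701) were not called.

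No single step between stages changed any of the 8 sums by edgeR. From 0 hpf to 1 hpf 3.48% of all genes changed, from 1 hpf to 1 dpf 0% and from 1 dpf to 3 dpf 11.2%. At an unadjusted p below 0.05 there were 2, 0 and 1 of the 8, and DESeq2 called 1, 0 and 1 (2929, 11 and 3981 of 23313 genes). The nearest to the threshold was rbpms2b LOC110526773 from 1 dpf to 3 dpf (log2 -0.44, adjusted p = 0.0515). Its stage means ran from 55.8 ± 4.84 CPM at 0 hpf to 45.8 ± 5.57 (SD, n = 2), 36.9 ± 3.21 and 29.4 ± 1.6 at 3 dpf (SD, n = 3 elsewhere). Those of dazl ran in the other direction, from 143 ± 6.80 to 167 ± 0.94, 203 ± 14.2 and 270 ± 66.6 CPM.

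**Figure D4:**
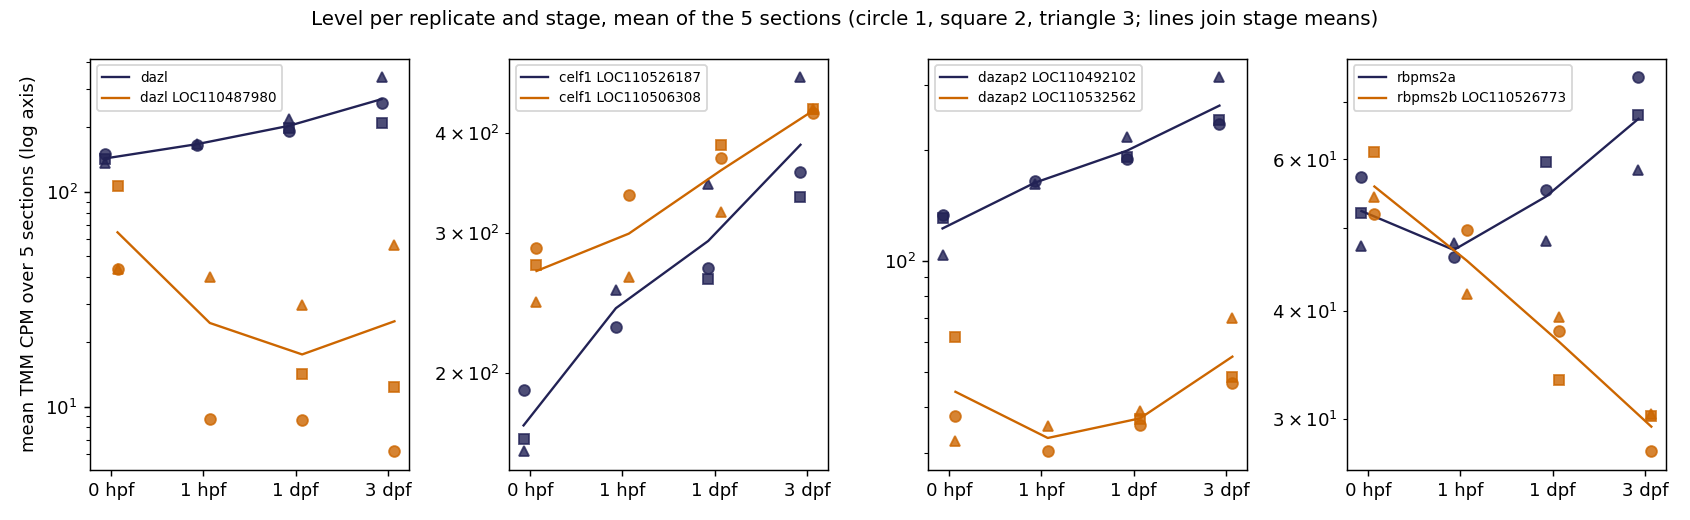
Mean level over the 5 sections (TMM-scaled CPM, log axis) at each stage for the 4 pairs of copies; points are replicates and lines join stage means. The stage means of rbpms2b LOC110526773 fall from stage to stage, with replicates at 27.5 to 30.4 CPM at 3 dpf. On this log axis dazl LOC110487980 has the widest spread between replicates of a stage.

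Copies with the same ortholog name, and rbpms2a with rbpms2b, were compared in how vegetal they were. In each of the 11 replicates the log2 of A over E was set side by side for both copies, in 4 pairs. The pair members differed in the same direction in 11 of 11 replicates in each pair (two-sided exact permutation test by sign flips over replicates, p = 0.000977, the smallest value that 11 pairs allow, and 0.000977 after adjustment over the 4 pairs). How many other pairs of copies, or of any genes, differ in the same direction in every replicate was not tested. The permutation test takes the 11 replicates as independent. With the same-numbered replicates after 0 hpf taken as 1 unit each, a choice made after seeing the data, 6 units were left, and the exact permutation p of each pair was 0.0312 (0.0312 adjusted), the smallest that 6 units allow. The copy dazl LOC110487980 was less vegetal than dazl by 2.40 (SD 0.73, lowest 0.94, highest 3.10). The copy celf1 LOC110506308 was less vegetal than LOC110526187 by 1.39 (SD 0.44, from 0.87 to 2.20). For dazap2 the difference of LOC110492102 minus LOC110532562 was -2.73 (SD 0.70, from -4.13 to -1.81).

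The pair rbpms2b LOC110526773 and rbpms2a differed by 2.22 (SD 0.87, from 0.60 to 3.23), and less at 3 dpf than before. Their difference was 2.69 (SD 0.58, n = 3) at 0 hpf, 2.58 (SD 0.03, n = 2) at 1 hpf, 2.77 (SD 0.28, n = 3) at 1 dpf and 0.97 (SD 0.32, n = 3) at 3 dpf. At 3 dpf the 3 values, from 0.60 to 1.21, lay below all 8 earlier ones. Division of shared reads between copies would bring their profiles nearer to each other, and how much of it took place was not tested.

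Across the 55 libraries 5 of the 8 genes correlated closely with each other and 3 less so. Pearson correlations of log2(TMM-scaled CPM + 0.5) are given as descriptions over libraries that share embryos, depth and stage. They do not measure the size of a difference between sections, and their spread over all pairs of genes was not computed. Among dazl, both celf1 copies, dazap2 LOC110492102 and rbpms2a the correlations ran from 0.942 to 0.989. With these 5 genes dazap2 LOC110532562 correlated at 0.797 to 0.865 and dazl LOC110487980 at 0.501 to 0.572. The values of rbpms2b LOC110526773 with them were all negative, from -0.288 to -0.150.

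The genes most like each of the 8, among 13862 named genes, also had high values. For dazl these were both copies of arhgap10 (LOC110534522 at 0.994 and LOC110497374 at 0.993), and stk17al (0.994). For celf1 LOC110526187 they were ralgps2 (0.994), the stress kinase gene mapkapk2a (0.993) and gramd1c (0.993), and for celf1 LOC110506308 dazl itself (0.989), the chloride channel gene clic1 (0.989) and elovl6l (0.987), of fatty acid elongation. For dazap2 LOC110492102 they were the tropomyosin gene tpm3 (0.994), clic1 (0.993) and the adaptor gene crk (0.992). For dazap2 LOC110532562 they were dcbld2 (0.944), pygo1 (0.940) and larp4b (0.935), and for dazl LOC110487980 fbxo45 (0.943), slc25a33 (0.908) and cldn15a (0.903). For rbpms2a they were gra (0.976), tfeb (0.975) and mast3a (0.973). The lowest values were those of rbpms2b LOC110526773, with DGKQ (0.882), hdac7a (0.878) and dtnbp1a (0.877).

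Other genes of germ plasm and germ granules were called at both ends. Of 26 measured at 0 hpf, 12 were vegetal and 8 animal (all genes 32% and 32%), with a median log2 of A over E of -0.03 against -0.01 for all genes. At 3 dpf 11 of 29 were vegetal and 11 animal (all genes 34.3% and 38.1%), with a median of -0.11. The 8 animal genes at 0 hpf and the counts at 3 dpf are near the shares of all genes. Among those in E at 0 hpf were buc, whose protein organizes the Balbiani body (264 CPM in A and 1167 in E, log2 -2.13, adjusted p = 1.11e-09), and grip2b LOC110531951 (5.15 and 80.2 CPM, log2 -3.96, adjusted p = 7.34e-10). Among those in A were tdrd6, a Tudor-domain gene whose product binds Bucky ball in zebrafish (189 and 17.1 CPM, log2 3.5, adjusted p = 1.39e-09), and tdrkh (343 and 132 CPM, log2 1.39, adjusted p = 1.02e-08). At 3 dpf nanos3 LOC110495042, a translational repressor gene of germ cells, was among those in A (72.9 and 2.01 CPM, log2 5.0, adjusted p = 5.98e-09).

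The 4 measured relatives of DAZ, CELF and RBPMS genes were vegetal or not called at every stage. At 0 hpf 2 of the 4 were higher in E (32% of all genes), both of them celf2 copies. The copy LOC110524948 had mean levels of 13.2 CPM in A and 105 in E (log2 -2.97, adjusted p = 2.17e-10), and LOC110500292 had 93.8 and 548 (log2 -2.54, adjusted p = 2.06e-09). Between 0 hpf and 3 dpf the difference of both moved toward A (log2 2.35, adjusted p = 5.9e-11 for LOC110500292, and 1.18, adjusted p = 3.2e-04 for LOC110524948), and that of the other 2 relatives toward E (dazap1 LOC110524168, log2 -0.78, adjusted p = 0.00782, and celf3a, -1.57, 0.0187). Of all genes, 49.1% changed in either direction. Counts over 4 genes are given as a description.

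Other RNA-binding regulators of maternal messages were called in similar numbers at both ends at 0 hpf and mostly at the animal end at 3 dpf. Of 51 measured at 0 hpf, 17 were vegetal and 18 animal, near the shares of all genes (32% and 32%). Of 53 at 3 dpf, 13 were vegetal and 34 animal, against 34.3% and 38.1% of all genes (median log2 1.28, all genes 0.07). Among those in A at 3 dpf was pabpc1a, which encodes a poly(A)-binding protein (2599 CPM in A and 162 in E, log2 4.05, adjusted p = 1.73e-09). Among those in E was cpeb4b LOC110537780, which encodes a cytoplasmic polyadenylation element binding protein (82.9 and 533 CPM, log2 -2.68, adjusted p = 2.68e-09).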

How the data were processed

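The deposited values are raw read counts per gene in 55 of 60 labelled libraries; the 5 libraries of replicate 2 at 1 hpf were not analysed here. Per the submitters' processing notes, fastp 0.23.4, STAR 2.7.11, HTSeq 2.0.4 and DESeq2 were used. No build and no strand option for counting is named (not given in the sources used here), and coordinates are left out. Zebrafish symbols came from the deposited ortholog table, which holds names (unit other), and biotypes from the RefSeq table for USDA_OmykA_1.1. The authors' normalized counts and stage table were not used.

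Counts were tested with edgeR 4.0.16 (R 4.3.3; TMM, filterByExpr with a minimum count of 10, quasi-likelihood F-tests, Benjamini-Hochberg adjustment over all genes tested at 0.05). Section fits within a stage held section and replicate. Redistribution was the difference between stages in A minus E, with each of the 11 replicates as its own block. Stage sums and fits within a section had no replicate term. Pair values used log2(TMM-scaled CPM + 0.5). Alternatives were DESeq2 1.42.0, its size factors, library sizes, no filter, each replicate left out, the replicate block and limma 3.58.1; scripts were tested on simulated data.

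Same-numbered replicates of 1 dpf and 3 dpf deviated together (correlations 0.39 to 0.60 over genes, but up to 0.47 between different numbers). Those of 1 hpf did so with 1 dpf (0.60 to 0.69, but up to 0.63 between different numbers). With 3 dpf they were at 0.48 to 0.64, but up to 0.50 between different numbers. The labels do not name such pairs, and the main fits did not use them. The link entered only the copy test with 6 units and the alternative with a replicate block. With 0 hpf the values were -0.03 to 0.05, so no pairing was seen there. Such correlations cannot exclude it. A change from 0 hpf to a later stage cannot be told apart from a difference between sets of samples. The members and gene lists were chosen with earlier results of these data known. Every matched gene is named, with the 3 named genes most correlated with each, and from each list up to 2 genes per direction and stage with the smallest adjusted p.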

Additional observations from a re-analysis of the deposited data

Results flagged for a closer look

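The difference between sections A and E changed between stages for 6 of the 8 genes, as tested by the difference itself in 1 fit of the 55 libraries (edgeR). From 1 dpf to 3 dpf the log2 of A over E of dazap2 LOC110532562 changed by 1.48 and that of rbpms2b LOC110526773 by -1.79. From 0 hpf to 3 dpf the changes were 1.35 for dazap2 LOC110532562, -1.93 for rbpms2b LOC110526773, -1.26 for dazl LOC110487980, -1.07 for dazl, -0.89 for celf1 LOC110526187 and -0.69 for celf1 LOC110506308. The calls of dazl, dazl LOC110487980 and both celf1 copies were each lost under at least 1 alternative. The 2 comparisons share the libraries of 3 dpf. A gene that changed was common, with 43.9% of all genes tested called from 1 dpf to 3 dpf and 49.1% from 0 hpf to 3 dpf.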

How the results depend on the processing

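The 125 called differences of single genes between sections or stages were recomputed under 988 alternatives. None turned its direction, 863 kept the call and 125 lost it; the cause was not tested. The 32 localized calls are not among these; of the 8 per stage, at least 7 held without any 1 replicate and at least 6 without the replicate block. The 4 differences between copies kept direction and call under the other pseudocounts (0.1 and 2), with library sizes and without each replicate, with p at the smallest value their pairs allow, as with linked replicate sets (0.0312, added after seeing the data). Leaving out the replicate block reduced the calls among the 8 to 3 for redistribution from 0 hpf to 3 dpf (8269 of 23458 genes). It left 0 for the steps B to C, C to D and D to E at 0 hpf (0, 7 and 652 of 21799 genes). For A to B it left 0 at 1 hpf (0 of 21644 genes) and at 1 dpf (9 of 22141 genes). DESeq2 called 3 for A to B at 0 hpf (191 of 21799 genes), 2 for A to B at 1 hpf (307 of 21644) and 1 in section E (1590 of 21028). It called 1 each for the sums from 0 to 1 hpf (2929 of 23313) and from 1 to 3 dpf (3981 of 23313). Library sizes also gave 1 for the sums from 1 to 3 dpf (2765 of 23460). A replicate block across stages gave 5 calls in section A, 2 in E and 1 for the sums from 0 to 1 hpf, though no pairing with 0 hpf was seen. The all-gene counts were then 13262, 1046 and 1822. For the sums from 1 dpf to 3 dpf, whose same-numbered replicates deviated together, it changed no call. Leaving out a replicate gave 3 to 6 calls for redistribution from 0 hpf to 3 dpf (8639 to 9912 among all genes). At 0 hpf it gave 4 to 7, 0 to 5 and 0 to 5 for B to C, C to D and D to E. For A to B it gave 0 to 4 at 1 hpf and 0 to 4 at 1 dpf, in sections B, D and E 0 to 6, 0 to 5 and 0 to 1, and for the sums 0 to 3 (0 to 1 hpf), 0 to 1 (1 to 3 dpf) and 1 to 6 (0 hpf to 3 dpf). At 1 hpf 1 replicate was then left, assumed to vary like the other stages.

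With library sizes the all-gene median log2 of A over E was 0.18, 0.24, 0.34 and 0.02 from 0 hpf to 3 dpf and that of redistribution from 0 hpf to 3 dpf was -0.25; changes of single genes are read against these. The all-gene split of genes higher in A and in E then went from 6965 and 6981 to 8388 and 5339 at 0 hpf, from 5972 and 5395 to 7490 and 3935 at 1 hpf, and from 7281 and 6755 to 9659 and 4620 at 1 dpf. For redistribution from 0 hpf to 3 dpf it went from 5928 and 5593 to 4612 and 7331. All-gene counts of neighbouring steps and of stage changes also moved by over 1.5 times: without replicate 1 the changes within sections B and D fell from 6196 and 3406 to 4 and 5, and those of the sums from 0 hpf to 3 dpf from 8467 to 802. At 0 hpf the step from C to D fell from 1994 to 47 without replicate 1 and to 0 without replicate 3, B to C from 2163 to 520 without replicate 1 and to fewer still without replicate 3, and D to E from 3505 to 170 without replicate 3. Depth limits dazl LOC110487980 most, with 4 counts in section A of replicate 2 at 3 dpf.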
